A study of Mus musculus with 20 samples.

Results

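The 10 genes described here, Gap43, Map2, Dcx, Tubb3, Stmn2, Nefl, Syt1, Syt4, Snap25 and Gad1, build the neuronal cytoskeleton and growth cone, release synaptic vesicles or make the transmitter GABA. They were listed by name for these functions, with earlier results of these data known. They are 10 of the 18193 genes that the arrays represent, with 24 of the 34945 probe sets that carry 1 gene symbol. The series holds 20 Affymetrix arrays of total RNA from mouse brain cell lines, called glial progenitors in its title. The embryonic transduced group had been genetically modified by transduction and was set against embryonic control progenitors, and the postnatal transformed group was set against postnatal control progenitors, with 5 arrays each. The labels give neither the introduced sequence nor the transforming agent, strain or age. They number the samples but do not say that these were separate cultures, so the p-values cover only how far these particular samples differ from each other, and that spread may be technical.

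Growing neurons carry Gap43 on the inner face of the growth cone membrane, and Dcx, Map2 and Tubb3 in the microtubules behind it. Stmn2 loosens microtubule ends, and Nefl is the light subunit of neurofilaments, which set axon calibre. Vesicle release joins the calcium sensor Syt1 on the vesicle to Snap25 on the plasma membrane, while Syt4 is a synaptotagmin of dense core and trafficking vesicles. Glial progenitors also express a part of these genes, so none of them alone marks a neuron.

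Promoter sequence from RefSeq (GRCm38.p6) was searched for 5 of the 10 genes, Map2, Dcx, Tubb3, Syt1 and Gad1. These genes gave 7 windows, each from 250 bases before to 50 after a transcription start. The other members were not searched, so the motif results below do not cover them. Gap43, Stmn2, Nefl and Snap25 had no promoter window. Syt4, the member with the largest rise, was left out by choice before the search and not for lack of a window. Tubb3 and Syt1 are printed because they moved together in both responses, and Gad1 because its embryonic change ran the other way. Capitals mark matches, on either strand, to TATAAA for the TATA box, CCAAT for the box of that name, and GGGCGG for the GC box. The E-box (CANNTG) was also searched and is not in capitals, since 72.3% of all windows hold it. None of the marked matches overlap.
Tubb3 at chr8:123411303-123411602, plus strand: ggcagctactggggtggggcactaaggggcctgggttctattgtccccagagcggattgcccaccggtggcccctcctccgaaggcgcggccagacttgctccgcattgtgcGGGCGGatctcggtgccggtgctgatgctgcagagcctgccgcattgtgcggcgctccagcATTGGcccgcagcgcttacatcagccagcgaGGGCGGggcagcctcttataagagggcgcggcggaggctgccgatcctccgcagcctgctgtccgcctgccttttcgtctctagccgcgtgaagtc
Syt1 at chr10:109010926-109011225, minus strand: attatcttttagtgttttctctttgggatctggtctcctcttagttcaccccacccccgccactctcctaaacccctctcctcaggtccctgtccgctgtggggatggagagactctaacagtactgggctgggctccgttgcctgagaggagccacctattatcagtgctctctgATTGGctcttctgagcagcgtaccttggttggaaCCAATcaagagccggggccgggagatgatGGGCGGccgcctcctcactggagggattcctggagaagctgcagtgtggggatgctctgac
Gad1 at chr2:70561879-70562178, plus strand: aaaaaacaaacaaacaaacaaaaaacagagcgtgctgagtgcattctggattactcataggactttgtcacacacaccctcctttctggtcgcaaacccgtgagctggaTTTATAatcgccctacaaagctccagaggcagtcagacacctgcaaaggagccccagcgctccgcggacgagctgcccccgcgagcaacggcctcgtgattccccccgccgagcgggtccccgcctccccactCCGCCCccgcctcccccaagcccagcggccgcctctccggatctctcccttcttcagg
The printed windows hold 2 GC boxes and 1 CCAAT box for Tubb3, 1 GC box and 2 CCAAT boxes for Syt1, and 1 TATA box, 1 GC box and 1 E-box for Gad1. The other Syt1 window, at chr10:109009062-109009361, differs from the printed one, with none of the 3 boxes, 3 E-boxes and a GC content of 44.0%. Of the 32851 promoter windows of the same length, 13.6% hold this TATA box, 37.4% the CCAAT box and 35.7% the GC box. The GC content of the printed windows was 67.3% for Tubb3, 56.7% for Syt1 and 60.0% for Gad1, with a median of 52.7% over all windows. The left (TTCAGCACC) and right (GGACAGCG) motifs of RE1, the element bound by the repressor REST, were found in none of the 7 windows, and in 0.371% and 1.26% of all windows. A match is a description of the letters and not a binding site.

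Signals were linear intensities as deposited. A probe set was taken as above background on an array when it exceeded the level under which 95% of the 27 bacterial control probe sets lay, which was between 107 and 221. Within postnatal control, arrays 4 and 5 stood apart. The cycling marker Mki67 read 37266, 34816, 35822, 5929 and 4351 on arrays 1 to 5 there, with 3848 to 5403 in postnatal transformed cells, and its part in the postnatal response was not tested. Calls of the 10 genes, and counts of the lists, that changed without arrays 4 and 5 are given both ways. As a sign of RNA integrity, the log2 ratio of 3' to 5' Gapdh probe sets averaged -0.30 in embryonic transduced, -0.38 in embryonic control, -0.55 in postnatal transformed and -0.46 in postnatal control. The same ratio for beta-actin averaged 0.42, 0.32, 0.28 and 0.25 in that order of groups, so in postnatal cells it was higher in transformed than in control cells while that of Gapdh was lower. The part of RNA quality in the results was not tested. In these bulk samples, fewer cells of a type and less RNA per cell cannot be told apart.

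Transduction and transformation went with different changes of these genes. In transduced embryonic progenitors 7 of the 10 genes fell and 1, Gad1, rose. In transformed postnatal progenitors 4 rose, Gap43, Tubb3, Syt1 and Syt4, and 2 fell, Dcx and Snap25. A gene was called when its adjusted p was under 0.05 and its change at least 2-fold, with p-values adjusted over all 18193 genes. By that rule 5.74% of all genes fell and 8.61% rose in the embryonic response, and 6.4% fell and 9.56% rose in the postnatal response. The 10 genes were listed with earlier results known, so these shares give a scale and are no test. The median log2 change of the 10 genes was -1.47 in the embryonic response, beside 0.08 over all genes, and 0.76 in the postnatal response, beside -0.0024. The arrays of modified and control cells did not overlap for 9 of the 10 genes in each response, where 34.8% and 32.2% of all genes had no overlap. Without postnatal control arrays 4 and 5, a repeat chosen after the values were seen, 4 genes still rose in the postnatal response but 1 fell, because Dcx was no longer called. In that repeat 9.25% of all genes rose and 7.26% fell.

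**Figure D1:**
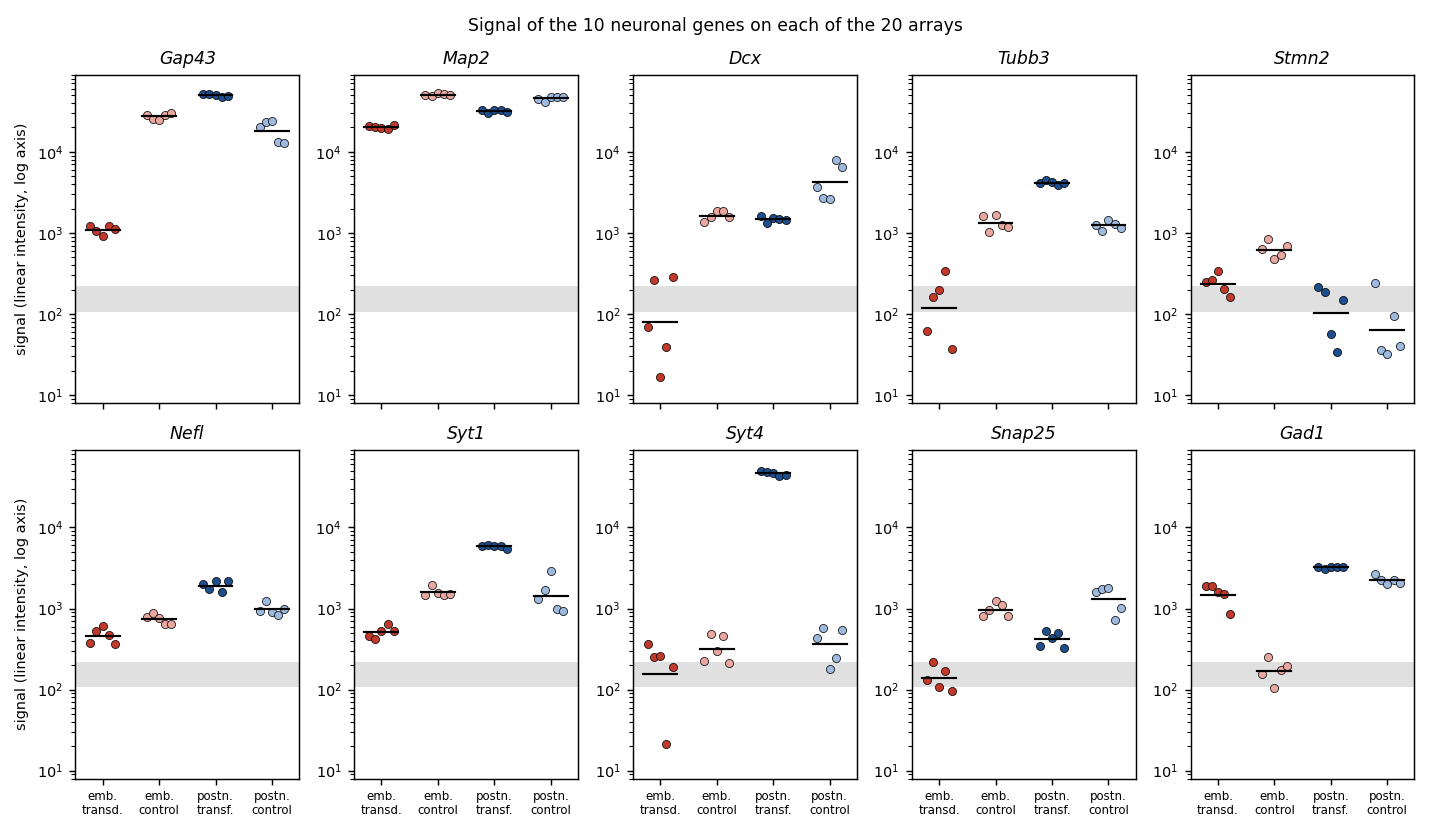
Signal of each gene (linear intensity on a log axis) on the 5 arrays of each group, with a bar at the mean of the log values and the range of the background level shaded. Gap43 was lowest in embryonic transduced cells, between 914 and 1217, and Syt4 in postnatal transformed cells, between 43505 and 49770, lay above every other array.

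Gap43, the growth cone protein, changed in opposite directions. It read 1217, 1050.2, 914, 1214 and 1106 on the embryonic transduced arrays, against 28582, 25552, 24929, 28873 and 29990 on embryonic control. The postnatal transformed arrays read 52503, 52332, 50627, 47938 and 48468, against 20447, 23231, 23861, 13343 and 12919 on postnatal control. All transduced arrays lay far below, and all transformed arrays above, their controls. The log2 change was -4.63 ± 0.14 in embryonic cells (SE, adjusted p = 9.44e-17), a 24.8-fold fall, and 1.47 ± 0.14 in postnatal cells (adjusted p = 1.13e-08).

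Tubb3, the beta tubulin enriched in neurons, had the same pair of directions. In embryonic transduced cells it read 62.2, 161, 198, 342 and 36.8, above background on 1 of 5 arrays, against 1641, 1023, 1654, 1258 and 1198 in embryonic control. Each transduced value was below every control value. The mean was 160 in transduced and 1355 in control cells (adjusted p = 6.53e-08), and no fold is given because most transduced values were within the background. Postnatal transformed cells read 4097, 4442, 4253, 3871 and 4154, against 1257, 1067, 1455, 1291 and 1163 in postnatal control, a log2 change of 1.73 ± 0.34 (adjusted p = 0.00021).

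Dcx, a microtubule protein of migrating neuroblasts, fell in both responses. Its signals were 69.7, 260.03, 16.7, 39.3 and 286 in embryonic transduced cells, above background on 2 of 5 arrays, against 1369, 1582, 1843, 1859 and 1588 in embryonic control (adjusted p = 2.76e-07). In postnatal transformed cells they were 1619, 1329, 1522, 1489.5 and 1453, against 3725, 2694, 2644, 7963 and 6554 in postnatal control. The groups did not overlap in either response, and the postnatal control arrays 4 and 5 read higher than the other 3. The postnatal log2 change was -1.51 ± 0.46 (adjusted p = 0.00959), and -1.004 without those arrays (adjusted p = 0.102).

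Map2, which binds microtubules of dendrites and cell bodies, fell in embryonic transduced cells. It read 21057, 20229, 19970, 18960 and 21584 there, against 50113, 49446, 53146, 51934 and 50566 in embryonic control, a log2 change of -1.33 ± 0.05 (adjusted p = 5.44e-15). In postnatal transformed cells the signals were 32685, 30455, 32951, 32839 and 31145, against 45013, 40888, 48202, 47031 and 47164 in postnatal control. Those groups did not overlap either, but the log2 change of -0.51 ± 0.05 was under 2-fold (adjusted p = 2.52e-08).

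Stmn2, a stathmin that destabilises microtubules in growth cones, read 248, 261, 339.7, 204 and 162 in embryonic transduced cells, above background on 4 of 5 arrays. Embryonic control read 630.4, 849.6, 474, 537 and 684. The groups were separate, and the gene fell by 1.34 ± 0.47 on the log2 scale (adjusted p = 0.0256). That call was lost without embryonic control array 2 or transduced array 4 or 5, with adjusted p between 0.05 and 0.0619. In postnatal cells Stmn2 was above background on 2 of 5 transformed and 1 of 5 control arrays, with means of 128 and 89.6, and was not called.

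Nefl, the neurofilament light chain, was not called in either response by its representing probe set, although its groups did not overlap in either. Embryonic transduced cells read 376, 532, 600.1, 471 and 369, against 788, 878, 763, 646 and 653 in embryonic control (log2 change -0.66 ± 0.16, adjusted p = 0.00191). Postnatal transformed cells read 1990.5, 1719, 2154, 1619 and 2167, against 937, 1239, 918, 836 and 998 in postnatal control. The postnatal change of 0.96 ± 0.16 (adjusted p = 3.57e-05) was just under 2-fold, and it passed 2-fold without postnatal control array 2 (1.05) or transformed array 4 (1.02). Nefm, the medium neurofilament chain, named after its values were seen, had a log2 change of -1.25 ± 0.11 in embryonic and 0.57 ± 0.11 in postnatal cells. Nefl lies on chromosome 14, of whose 354 genes with a mean signal over 500 the median postnatal change was -0.86, with 139 lower and 11 higher. The part of this chromosome-wide shift in the values of Nefl was not tested.

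**Figure D2:**
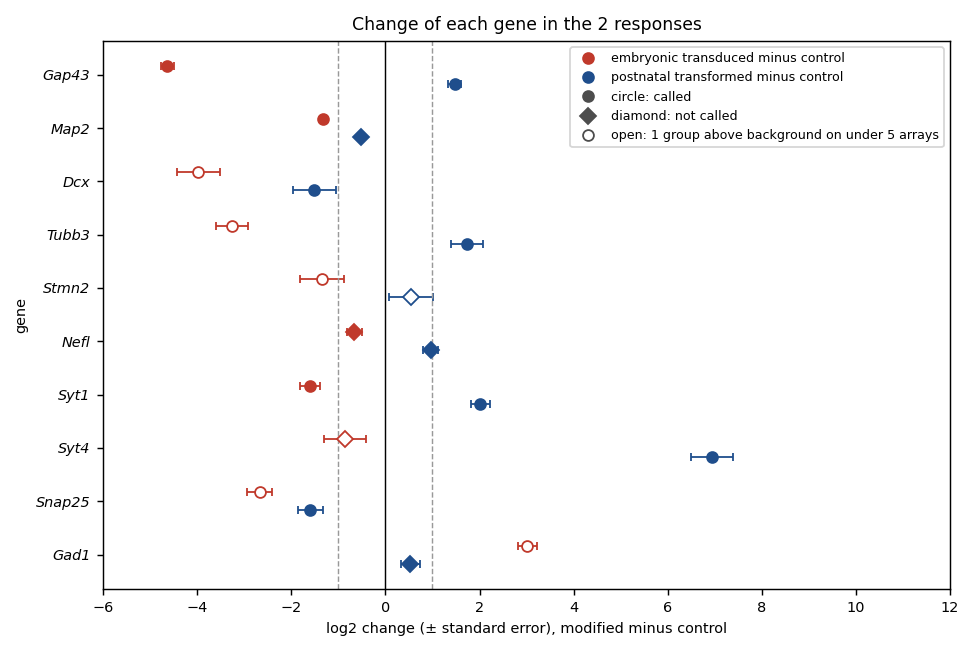
Log2 change of each gene (points, with standard error) in embryonic transduced cells (red) and postnatal transformed cells (blue) against their controls. Circles are called and diamonds are not, open symbols mark genes above background on fewer than 5 arrays of a group, and the dashed lines mark a 2-fold change. Gap43, Tubb3 and Syt1 lie left of the lines in red and right of them in blue.

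Syt1, the calcium sensor of fast vesicle release, also moved in opposite directions. It read 452, 425, 521, 645 and 522 in embryonic transduced cells, against 1463, 1949, 1557, 1465 and 1515 in embryonic control, a log2 change of -1.61 ± 0.21 (adjusted p = 1.81e-06). Postnatal transformed cells read 5945, 6039, 5932, 5892 and 5489.5, against 1294, 1698, 2897, 999.9 and 944 in postnatal control. Each transformed array was more than every control array, and the log2 change was 2.02 ± 0.21 (adjusted p = 5.61e-08), a 4.05-fold rise.

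Syt4 had the largest rise among the 10 genes. Its signals were 49770, 48706, 46267, 43505 and 44334 in postnatal transformed cells, against 439, 579.5, 179, 244 and 542 in postnatal control. This is a log2 change of 6.94 ± 0.45, or 123-fold (adjusted p = 3.59e-11). Embryonic transduced cells read 362, 254, 256, 21.6 and 188, above background on 3 of 5 arrays, and embryonic control read 227, 490.2, 298, 459 and 212. Those groups overlapped and the gene was not called (adjusted p = 0.149).

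Snap25, the plasma membrane SNARE, fell in both responses. In embryonic transduced cells it read 131, 219.7, 107, 170.06 and 95.5, above background on 2 of 5 arrays, against 808, 948, 1233, 1119 and 801 in embryonic control (adjusted p = 3.61e-08). Postnatal transformed cells read 345, 528, 431, 497 and 327, against 1617, 1740.2, 1799, 722 and 1016 in postnatal control. Neither pair of groups overlapped, and the postnatal log2 change was -1.60 ± 0.27 (adjusted p = 3.41e-05). Of the 3 vesicle genes, Syt1 and Syt4 thus rose in transformed cells while Snap25 fell.

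Gad1, which converts glutamate to GABA, was the only gene of the 10 called higher in transduced embryonic cells. It read 1892, 1881, 1603, 1499 and 855 there, against 155, 253, 104, 176 and 198 in embryonic control, above background on 3 of 5 control arrays (adjusted p = 6.02e-11). In postnatal transformed cells the signals were 3219.5, 3051, 3271, 3268 and 3275, against 2651, 2239.9, 1982, 2239 and 2042 in postnatal control. The transformed arrays were all above the controls, but the log2 change of 0.53 ± 0.20 was under 2-fold (adjusted p = 0.0376).

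Genes with several probe sets mostly gave the same direction on each. Of the 4 Map2 probe sets, 3 were called lower in embryonic transduced cells, with log2 changes between -2.04 and -1.33, and the dimmest gave -0.78 ± 0.20. That probe set was the one of the 4 called in postnatal cells (-1.12 ± 0.20). All Dcx probe sets had negative changes in both responses, but the 2 dimmest were not called in postnatal cells (-0.61 and -0.88). For Syt1, 3 of 4 probe sets were called in both responses, with postnatal changes between 1.87 and 2.19, and the other was not above background on any embryonic array. The second Syt4 probe set rose by 6.76 ± 0.34 in postnatal cells, and was above background on 2 embryonic control arrays and none of the transduced. The second Nefl probe set was called in both responses, reading 191, 36.7, 208, 82.1 and 10.8 in embryonic transduced cells, above background on 1 array, against 551, 359, 436, 561 and 238 in embryonic control. In postnatal cells that probe set rose by 1.57 ± 0.43. The second Stmn2 probe set was called lower in embryonic transduced cells (adjusted p = 0.00266), above background on 3 of 5 transduced arrays. It was not called in postnatal cells, where it was above background on 1 control array and no transformed array. The second Snap25 probe set was above background on no modified array, and on 1 embryonic and 3 postnatal control arrays. Both Gad1 probe sets were called in embryonic cells and neither in postnatal cells.

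**Figure D3:**
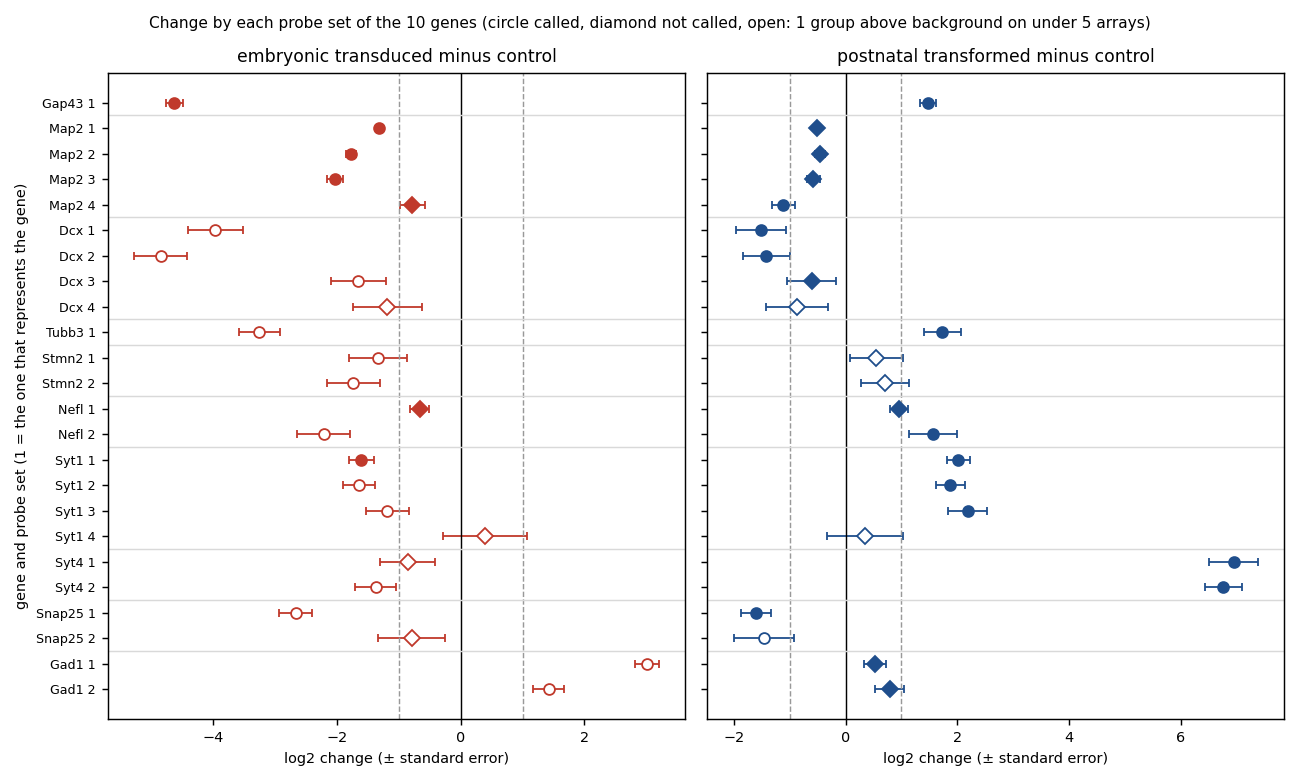
Log2 change (points, with standard error) by each of the 24 probe sets in embryonic transduced (left) and postnatal transformed cells (right) against their controls, numbered within a gene from the brightest. Circles are called, diamonds are not, and open symbols mark probe sets above background on fewer than 5 arrays of a group. Both Syt4 probe sets lie near 7 in postnatal cells, at 6.94 and 6.76.

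The difference of the 2 responses was tested as an interaction term, postnatal change minus embryonic change. Age and the kind of modification cannot be told apart in it. It was called for 9 of the 10 genes, 8 with a higher postnatal change and 1, Gad1, with a lower one, where 9.36% and 9.75% of all genes were called. Syt4 differed by 7.80 ± 0.64 on the log2 scale, Gap43 by 6.11 ± 0.20, Tubb3 by 4.99 ± 0.48 and Syt1 by 3.63 ± 0.30. Dcx, lower in both responses, differed by 2.46 ± 0.64, and Gad1 by -2.48 ± 0.28. For Syt4, Tubb3, Dcx, Stmn2, Snap25 and Gad1 at least 1 group was above background on only 1 to 3 arrays, so these sizes move with the offset added before taking logs and are no measured folds. With offsets of 1 and 64 the difference was 8.01 and 7.39 for Syt4, 5.20 and 4.51 for Tubb3, 2.79 and 1.87 for Dcx, and -2.59 and -2.20 for Gad1. By their second probe sets the difference was -0.63 for Gad1 and -0.67 for Snap25, and neither was called. The 2 dimmest Dcx probe sets gave 1.05 and 0.31, also not called. Map2 differed by 0.82 ± 0.07 (adjusted p = 5.99e-09), under 2-fold. Snap25 (1.07 ± 0.38, adjusted p = 0.0283) lost its call without postnatal control arrays 4 and 5 (0.67, adjusted p = 0.149). It was also lost without any one of embryonic control array 3 or 4, transduced array 3 or 5, postnatal control array 4 or 5, and transformed array 2 or 4, with adjusted p between 0.0507 and 0.0585. Stmn2 (1.89 ± 0.66, adjusted p = 0.0262) lost it without postnatal control array 3 or transformed array 1 or 2, with adjusted p between 0.0513 and 0.0549. By its second probe set the Stmn2 difference was 2.44 and was called (adjusted p = 0.0028).

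Between the controls, 2 of the 10 genes were higher and 1 lower in postnatal than in embryonic cells, where 4.86% and 5.72% of all genes were called. Gad1 averaged 2231 ± 262 in postnatal control and 177 ± 54.9 in embryonic control (SD, n = 5 each; limma adjusted p = 1.48e-11). Dcx averaged 4716 ± 2413 in postnatal control and 1648 ± 205 in embryonic control (limma adjusted p = 0.0248, SD, n = 5 each). That call was lost without postnatal control arrays 4 and 5 (0.86, adjusted p = 0.22), without either one of them, and without embryonic control array 1, where adjusted p was 0.0768, 0.0657 and 0.0533. Stmn2 averaged 89.6 ± 90.3 in postnatal control, above background on 1 array, and 635 ± 145 in embryonic control (SD, n = 5 each; limma adjusted p = 4.23e-05). The comparison holds any difference in region of origin or culture, and it shares its control arrays with both responses.

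Between the modified groups, 8 of the 10 genes were higher in postnatal transformed than in embryonic transduced cells and none was lower, where 11.7% and 13.7% of all genes were called. Syt4 averaged 46516 ± 2705 in transformed and 216 ± 126 in transduced cells (SD, n = 5 each; limma adjusted p = 1.5e-12). Gap43 was higher by 5.50 ± 0.14 on the log2 scale, Syt1 by 3.49 ± 0.21 and Nefl by 2.02 ± 0.16. Gad1 was higher by 1.10 ± 0.20, and by 0.90 without transduced array 5. Map2 (0.65 ± 0.05) was under 2-fold. Stmn2, with means of 128 in transformed and 243 in transduced cells, was not called (adjusted p = 0.0672), and was called lower without transformed array 1 or 2 (adjusted p = 0.0337 and 0.0432) and by the mean of its probe sets (adjusted p = 0.0187). The second Stmn2 probe set was called lower in transformed cells (adjusted p = 0.0274), above background on 3 transduced arrays and no transformed array. The arrays of the modified groups also enter both responses.

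Across the 4 groups, Gap43, Tubb3 and Syt1 shared an order of means, from postnatal transformed through embryonic control and postnatal control to embryonic transduced. For Tubb3 and Syt1 the controls overlapped, so their order is not settled. Syt4 stood apart in postnatal transformed cells, and the other 3 groups overlapped in turn. Nefl ran from postnatal transformed through postnatal control and embryonic control, which overlapped, to embryonic transduced. Dcx and Snap25 had their highest mean in postnatal control, which overlapped embryonic control for Snap25. Gad1 had no overlap between any neighbours, with means of 3217 in postnatal transformed, 2231 in postnatal control, 1546 in embryonic transduced and 177 in embryonic control. Embryonic transduced cells had the lowest mean for 8 of the 10 genes, the exceptions being Stmn2 and Gad1.

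Genes whose pattern lay closest to a member were found by the mean absolute difference of log2 values over the 20 arrays, after each gene's own mean was removed. For Gap43 they were Tmem255a (a difference of 0.279) and the neural proteoglycan Cspg5 (0.412). Cspg5 averaged 1241 in embryonic transduced, 14187 in embryonic control, 52398 in postnatal transformed and 19784 in postnatal control. For Syt1 they were Traf3ip2 (0.257) and the metalloprotease Mmp17 (0.26), and for Nefl Rexo2 (0.185) and the adenylate kinase Ak5 (0.191). Snap25 lay closest to Csrnp3 (0.347) and the neuronal membrane glycoprotein Gpm6a (0.363). The closest genes were farther off for Syt4, the protease inhibitor Serpina3n (0.734) and Rasgef1c (0.903). For Tubb3 they were Zfp941 (0.372) and the phosphodiesterase Pde7b (0.396), for Dcx Phactr3 (0.468) and St6gal2 (0.486), for Gad1 Ephx4 (0.452) and Prkar1b (0.501), and for Stmn2 Tox2 (0.504) and Col1a1 (0.547). Col1a1 was below background on all postnatal transformed arrays, and Stmn2 was near background in both postnatal groups. The likeness of these 2 genes thus includes values near background.

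Other genes of the same machinery were read from lists chosen by function, with earlier results of these data known. For every list below, the shares over all genes were 5.74% lower and 8.61% higher in embryonic cells. In postnatal cells they were 6.4% lower and 9.56% higher. In the list of microtubule and neurofilament genes, 9 of 20 fell and none rose in embryonic transduced cells (median -0.82), while in postnatal transformed cells 3 rose and 1 fell (median -0.13, and 0.01 without control arrays 4 and 5). Stmn3, a stathmin like Stmn2, fell in both, with -4.93 ± 0.08 in embryonic and -1.56 ± 0.08 in postnatal cells. Tubb2a, a beta tubulin, had a log2 change of -1.70 ± 0.09 and the neurofilament protein Ina of -2.71 ± 0.16 in embryonic cells. The kinesin Kif5c rose in postnatal cells by 1.48 ± 0.10. As a difference of the responses, 11 of the 20 genes had a higher postnatal change and none a lower one. Over all genes, 9.36% and 9.75% were called in these directions.

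Growth cone and axon extension genes fell in 7 of 20 cases and rose in 1 in embryonic cells (median -0.48), and in postnatal cells 4 rose and 2 fell (median -0.22). Without postnatal control arrays 4 and 5, 3 rose and 2 fell (median -0.14). The adhesion protein Cntn1 had an embryonic change of -3.79 ± 0.07 and the semaphorin signalling protein Crmp1 of -4.29 ± 0.10. Dpysl3, of the same family as Crmp1, fell in both, with -2.05 ± 0.08 in embryonic and -1.38 ± 0.08 in postnatal cells. The adhesion protein Nrcam rose in postnatal cells by 1.78 ± 0.09.

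Among the release machinery the counts were mixed, and postnatal counts of 1 or 2 higher lay near the 9.56% of all genes that rose. Of 13 other synaptotagmins, 4 fell and 2 rose in embryonic cells (median -0.40), and 1 rose and none fell in postnatal cells (median 0.65, and 0.39 without control arrays 4 and 5). Syt7 and Syt11 had embryonic changes of -2.31 ± 0.10 and -1.87 ± 0.10. Syt13 was the only gene of this list called in both responses, with the directions of Syt1. It changed by -2.53 ± 0.31 in embryonic cells. From below background on all postnatal control arrays, it was at least 3.71-fold higher in transformed cells. Of 18 genes for SNAREs and their partners, 4 fell and 2 rose in embryonic cells (median -0.07), and 2 rose and 1 fell in postnatal cells (median 0.49). Cplx1, a complexin that clamps the release complex, had changes of -2.65 ± 0.30 and -3.34 ± 0.30, while Rims1 of the active zone rose by 2.06 ± 0.22 in postnatal cells. Of 20 synaptic vesicle proteins, 4 fell and 3 rose in embryonic cells (median -0.37) and 2 rose in postnatal cells (median 0.20), among them Rab3b (3.43 ± 0.18), a GTPase of vesicle docking. Without postnatal control arrays 4 and 5 the postnatal counts of that list were 4 higher and 1 lower. Synaptophysin, Syp, averaged 324 ± 64.5 in embryonic transduced and 981 ± 67.3 in embryonic control cells (SD, n = 5 each; limma adjusted p = 1.79e-07).

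Dense core granule genes, the kind of vesicle on which Syt4 is found, fell in 5 of 14 cases and rose in 2 in embryonic cells (median -0.43), and rose in 2 and fell in 1 in postnatal cells (median 0.20). Without postnatal control arrays 4 and 5, 2 rose and 2 fell in postnatal cells (median 0.05), and 6 fell in embryonic cells, where only the shared estimate of spread differs. The granin Scg3 fell at least 27.0-fold in embryonic transduced cells, where it was below background on all arrays. Cadps, which primes these granules, had an embryonic change of -3.02 ± 0.14. Chga was called lower in both responses. It averaged 106 ± 83.0 in postnatal transformed and 987 ± 128 in postnatal control cells, above background on 1 transformed array (limma adjusted p = 1.1e-06, SD, n = 5 each). In embryonic cells it averaged 114 ± 79.3 in transduced and 780 ± 174 in control cells, above background on 1 transduced array (limma adjusted p = 1.14e-05). Of 12 genes of GABA synthesis and interneuron specification, 1 rose in embryonic cells, Dlx2, above background on 5 transduced and 1 control arrays. In postnatal cells 2 rose and 3 fell, with the neuropeptide Npy at 3.57 ± 0.38 and Dlx2 at -1.20 ± 0.38, and 3 rose and 1 fell without control arrays 4 and 5. Of the calls with all arrays, Dlx6 rose from below background on every control array, by at least 1.12-fold. Dlx1 fell to below background on every transformed array, by at least 1.18-fold, so both calls lie near the background.

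Regulators of neuronal identity fell in 9 of 19 cases and rose in 2 in embryonic cells (median -1.004), and fell in 4 and rose in 1 in postnatal cells (median -0.23, and -0.41 without control arrays 4 and 5). The RNA-binding proteins Elavl3 and Nova1 had embryonic changes of -2.36 ± 0.17 and -3.50 ± 0.10, while Celf4 rose by 2.37 ± 0.17. Nova1 was also called lower in postnatal cells (-1.22 ± 0.10). In postnatal cells Neurog2 was the gene that rose, from below background on all control arrays to at least 3.09-fold higher in transformed cells. Neurog2 was called higher in embryonic transduced cells too (1.75 ± 0.39). The zinc finger factor Insm1 fell in both, with -1.004 ± 0.23 in embryonic and -3.17 ± 0.23 in postnatal cells. Rbfox3, which encodes the neuronal nuclear antigen NeuN, also fell in both, with -1.09 ± 0.26 and -2.91 ± 0.26. It was above background on 4 of 5 transformed arrays. REST, which represses many neuronal genes outside neurons, read 5193, 4596, 5354, 4587 and 3930.3 in embryonic transduced cells, against 2238, 2950.4, 2024, 2468 and 2231 in embryonic control. The groups were separate, and the log2 change of 0.99 ± 0.11 was just under 2-fold (adjusted p = 1.1e-07). Its corepressor Rcor1 rose by 1.16 ± 0.07 there. Of the 10 genes in the list of REST and corepressors, it was the 1 called in embryonic cells (median 0.11). That is near the 8.61% of all genes that rose. In postnatal cells none of the 10 was called (median -0.09, and -0.0030 without control arrays 4 and 5), although 9 had an adjusted p under 0.05, with Rest at 0.15 ± 0.11 (adjusted p = 0.297), Rcor1 at 0.37 ± 0.07, Rcor2 at -0.83 ± 0.17 and the demethylase Kdm1a at -0.99 ± 0.05. The other 6 genes, Rcor3, Sin3a, Hdac1, Hdac2, Ehmt2 and Ctdsp1, lay between -0.26 and 0.19 in embryonic and between -0.43 and 0.36 in postnatal cells.

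**Figure D4:**
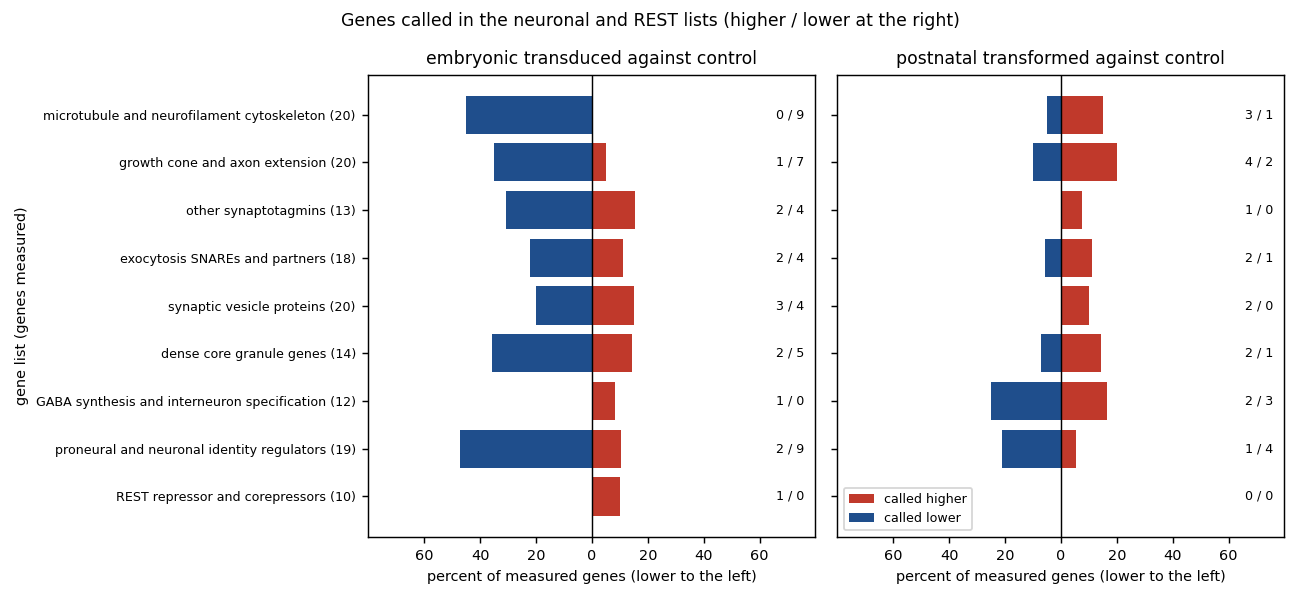
Share of the measured genes of each list called higher (right, red) or lower (left, blue) in embryonic transduced and in postnatal transformed cells against their controls, with both counts at the right. The microtubule and neurofilament list had 9 lower and none higher in embryonic cells, and 3 higher and 1 lower in postnatal cells.

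Markers of other cell types moved in the same comparisons. Of 9 oligodendrocyte precursor and oligodendrocyte markers, 4 fell in embryonic transduced cells, with a summed signal of 97332 to 107050 there and 186000 to 211160 in embryonic control. In postnatal transformed cells 3 fell, with sums of 202250 to 214590 there and 235150 to 331150 in postnatal control, and 1 fell without control arrays 4 and 5. Pdgfra, which defines these precursors, averaged 596 ± 198 in embryonic transduced and 7629 ± 1239 in embryonic control cells (SD, n = 5 each; limma adjusted p = 4.69e-13). Of 8 astrocyte markers, 3 fell in embryonic cells, with sums of 33255 to 37444 in transduced and 40360 to 44237 in control cells. In postnatal cells 4 fell and 1 rose, with sums of 42110 to 44557 in transformed and 16126 to 114730 in control cells. Microglial markers summed to 1878 to 3057 in embryonic transduced, 1145 to 1556 in embryonic control, 1364 to 1666 in postnatal transformed and 1024 to 1380.4 in postnatal control cells, with Aif1 and Itgam below background on all 20 arrays. Of these 6 markers Cd68 rose in both responses, by 1.31 ± 0.21 in embryonic and 1.23 ± 0.21 in postnatal cells. Itgam also passed the test in embryonic cells (adjusted p = 0.0493), at signals below background in both groups, and is not counted as a rise. Endothelial and fibroblast markers, 8 in number, summed to at most 2473 on any array, with 1 higher in embryonic cells and Pecam1 below background on all arrays. In postnatal cells none was called, and 1 was higher without control arrays 4 and 5. Their part in the results was not tested.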

How the data were processed

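Total RNA of 20 samples was measured on Affymetrix mouse arrays, 1 per sample. The deposited values were linear intensities, 1 per probe set and array. Each array's trimmed mean was close to 2500.01, so they had been scaled to a common target. The members and gene lists were chosen with earlier results of these data known. How the authors summarised the probes, and with which software, is not given in the sources used here.

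Of 45101 probe sets, 64 control probe sets were left out. Those with 1 gene symbol in the platform annotation (34945) were kept, 932 carried several symbols and 9160 were unlisted. Where a gene had several, the brightest by mean log2 over all arrays stood for it. The values were analysed as log2(signal + 16) with limma 3.58.1 (R 4.3.3), fitting 4 group means over all 20 arrays with lmFit and eBayes with a trend, two-sided, with Benjamini-Hochberg adjustment over 18193 genes. Probe sets were also tested singly over 45037. A fold is given as a bound where a group was below background on all arrays, and no fold between 2 groups is given for a member where it was above background on 1 to 3. Log2 differences of the responses, and values under alternatives, are printed for such members too and move with the offset. The number of arrays limits the precision. No 2 arrays held identical values (190 pairs).

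Of 186 listed genes 177 were measured and the rest were not analysed here. In each response, the text draws on up to 4 genes per list with the smallest p among those called and above background on all arrays of at least 1 group, and on every gene of the REST list. For each member whose group means spanned over 2 on the log2 scale, which left out Map2, the 2 genes closest in pattern were named. Alternatives were other offsets, scalings, probe set choices, filters and thresholds, a replicate block and each array left out. Promoter windows came from RefSeq (GRCm38.p6).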

Additional observations from a re-analysis of the deposited data

Results flagged for a closer look

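The response differed between postnatal and embryonic cells for 9 genes, by an interaction term in limma (postnatal minus embryonic, log2 scale). Of the genes above background on all arrays, Gap43 had 6.11, Syt1 3.63 and Nefl 1.63. The others had a group above background on only 1 to 3 arrays, so their sizes move with the offset and have no order. They were 7.80 for Syt4, 4.99 for Tubb3, 2.46 for Dcx, 1.89 for Stmn2, 1.07 for Snap25 and -2.48 for Gad1. Age, kind of modification and culture enter this difference together and cannot be told apart.

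In 4 of 40 groups of 5 arrays, 1 array lay far from the others by Dixon's test, which chance gives in about 1 of 20 groups. Syt1 read 1949 on embryonic control array 2, the highest of its group, and 5489.5 on postnatal transformed array 5, the lowest. Syt4 read 21.6 on embryonic transduced array 4, the lowest and below background. Gad1 read 3051 on postnatal transformed array 2, the lowest of its group.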

How the results depend on the processing

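Of the 10 genes, 8 were called for transduction, 6 for transformation, 9 for the difference of both, 3 between the control groups and 8 between transformed and transduced cells. Leaving out each array in turn gave 7 to 8, 6 to 7, 7 to 9, 2 to 3 and 7 to 9. With no fold threshold the count between the controls was 5. That setting also added Nefl for transduction, and Map2, Nefl and Gad1 for transformation. It added Map2 for the difference and between transformed and transduced cells. Syt1 between the controls, not called at -0.14, ranged from -0.39 to 0.0083 with 1 array left out (the lowest without postnatal control replicate 3, the highest without replicate 5) and was 0.23 without postnatal control arrays 4 and 5. With the mean of all probe sets Nefl was called in both responses (-1.44 and 1.26) and Syt4 in the embryonic one (-1.12). That setting ended the call of Snap25 for the difference (0.20, adjusted p = 0.799) and between the modified groups (0.68, adjusted p = 0.103), took Gad1 there under 2-fold (0.98) and called Stmn2 lower there (-1.11, adjusted p = 0.0187). An offset of 64 ended the Snap25 difference (adjusted p = 0.0541) and an offset of 1 Dcx between the controls (adjusted p = 0.055). A fit with the replicate number as a block gave 8, 6, 9, 3 and 8 and changed no member's call. Same-numbered arrays showed little shared deviation (r between -0.116 and 0.115). That cannot exclude a pairing of the samples, and the labels do not state one. Quantile scaling moved the median of all genes by 0.139 between the modified groups. Signals near the background limit Dcx, Tubb3, Snap25 and Syt4 in transduced cells, Gad1 in embryonic control and Stmn2 in both postnatal groups.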

Other observations

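Within postnatal control, the neuronal genes did not all move one way between arrays 1 to 3 and arrays 4 and 5. On arrays 4 and 5 Dcx (7963 and 6554) and the neuronal RNA-binding protein Elavl3 (7003 and 6112) read more than on any of arrays 1 to 3, where they reached 3725 and 4316. Synaptophysin (Syp) read 1247 and 1440.1 there, against at most 1112 on arrays 1 to 3. Gap43 (13343 and 12919), Snap25 (722 and 1016) and Syt1 (999.9 and 944) read less than on any of arrays 1 to 3. Tubb3 and Map2 overlapped between them. The arrays were compared because of their Mki67 values and no test was made.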
